A study of Homo sapiens with 16 samples.

Results

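The control cells of J82, an established human bladder cancer cell line, are described here against the control cells of 3 other bladder cancer lines, 253J, RT112 and TCCSUP. All were wild type by their labels and had been given the vehicle alone, 0.01% DMSO, for 48 h. The lines compared and the gene lists were chosen with earlier results of these data known. J82 control replicates 1 and 3, taken by their labels, were set against the mean of the 3 line means of the other control libraries. They are 2 of the 8 control libraries and 2 of the 16 libraries in all, the other 8 being of cells given the inhibitor CM-1758, which were not used in the main comparison. 253J, J82 and RT112 were grown in DMEM GlutaMAX and TCCSUP in EMEM, with 10% fetal bovine serum throughout, so for TCCSUP the line and its medium cannot be told apart. Each line is 1 line in culture, with 2 libraries. The p-values therefore rest on the spread between libraries of a line, with 1 estimate per gene shared by the 4 lines. A difference from 3 lines says nothing of bladder tumours at large.

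Total counts ran from 27655401 to 32537104 per library, and 18307 of 35993 gene symbols passed the filter on low counts. Levels are given in CPM, the counts of a gene per 1000000 counts of the normalised library, and they compare libraries for 1 gene, not genes with each other, since no gene lengths were used. Against the mean of the 3 lines, a gene counted as higher in J82 with a log2 fold change over 2, or as lower with one under -2, provided that its adjusted p stayed below 0.01. The test was the quasi-likelihood test of edgeR. A gene was also called against each line where, in addition, all 3 comparisons with 1 line had a log2 fold change past 1 in the same direction and an adjusted p under 0.01. By the first rule 1590 genes (8.69%) were higher and 936 (5.11%) lower in J82, and by the second 487 (2.66%) were higher and 479 (2.62%) lower. The median log2 fold change over all genes was 0.05. The mean of the lines is a mean of log values, so 1 line at 0 moves it far, and the 1011 tested genes with no counts in J82 and in another line could not be called lower by it. DESeq2 gave 1457 higher and 1205 lower genes, and the trend fit of limma, chosen after seeing the data, 1276 and 1582, so the balance of higher and lower genes depends on the test. Counts of 3 or fewer, 0.0909 to 0.113 CPM, were taken as the floor, and against a group at the floor in all its libraries a fold is given as a lower bound.

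Of the pairs of libraries of a line, the J82 pair differed most. Among genes with a mean log2 CPM over 1 in the line, 342 were over 2-fold apart between J82 replicates 1 and 3. The other lines had 52 to 60 such genes. Over all 18307 genes tested, 1504 were over 2-fold higher in J82 replicate 1 than in replicate 3, and 313 over 2-fold lower. The chi-square per degree of freedom was 71.7 in J82, against 11.6 to 22.0 in the other lines. The estimate of spread shared by the lines can therefore be too small for J82, and its p-values too low. For this reason values of both J82 libraries are given throughout, replicate 1 first. Over the genes tested, the mean log2 CPM of J82 had a Pearson correlation of 0.847 with TCCSUP, 0.781 with 253J and 0.778 with RT112, which describes these libraries only, since genes are not independent replicates.

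Type I interferons are secreted proteins that cells release on sensing viral nucleic acid. They bind the receptor formed by IFNAR1 and IFNAR2, whose kinases JAK1 and TYK2 phosphorylate STAT proteins, and these join IRF9 in a complex that binds the interferon-stimulated response element in the promoters of target genes. The targets include antiviral effectors, the ubiquitin-like protein ISG15 with its conjugating enzymes, the RNA sensors themselves and the transcription factors of the pathway, so that the system feeds on itself. The normal urothelium, from which bladder cancers arise, is an epithelium with a basal layer that makes KRT5, KRT14 and TP63 and with luminal cells that make uroplakins under GATA3, FOXA1 and PPARG, and bladder cancers are often described by how much of either programme, or of a mesenchymal one, they keep.

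The promoters of 9 of the antiviral effector and ISG15 genes are shown to let the response element be seen beside the levels below. All but DDX60 were called higher in J82, and the 9 were chosen after their values were seen, from promoters that held a match to the motif below. Each row gives 60 bases upstream of the transcription start, 5′ to 3′ on the strand of the gene, from the RefSeq promoter table on GRCh38.p14, which is not the build of the count table. Capitals mark matches to the motif GAAANNGAAA or, read from the other strand, TTTCNNTTTC.
ISG15: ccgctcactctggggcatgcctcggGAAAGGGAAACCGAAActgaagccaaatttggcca
IFIT1: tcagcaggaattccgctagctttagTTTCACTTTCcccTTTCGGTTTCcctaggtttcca
IFI6: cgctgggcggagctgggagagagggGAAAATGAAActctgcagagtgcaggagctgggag
IFI27: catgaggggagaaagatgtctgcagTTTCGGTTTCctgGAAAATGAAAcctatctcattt
IFI44L: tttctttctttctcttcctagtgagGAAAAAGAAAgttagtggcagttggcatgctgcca
BST2: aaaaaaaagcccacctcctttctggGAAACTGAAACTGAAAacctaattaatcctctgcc
HERC5: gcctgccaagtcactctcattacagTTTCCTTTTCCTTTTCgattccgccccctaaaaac
EPSTI1: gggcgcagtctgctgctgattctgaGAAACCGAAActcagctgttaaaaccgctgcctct
DDX60: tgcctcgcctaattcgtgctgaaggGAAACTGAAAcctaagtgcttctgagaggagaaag

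These windows are ISG15 at chr1:1013359-1013418 (+ strand), IFIT1 at chr10:89392482-89392541 (+ strand), IFI6 at chr1:27672314-27672373 (- strand), IFI27 at chr14:94110603-94110662 (+ strand), IFI44L at chr1:78620259-78620318 (+ strand), BST2 at chr19:17405726-17405785 (- strand), HERC5 at chr4:88456969-88457028 (+ strand), EPSTI1 at chr13:42992257-42992316 (- strand) and DDX60 at chr4:168318806-168318865 (- strand). In BST2, HERC5 and ISG15 neighbouring matches overlap. The motif was searched on both strands of the 300 bases around each start, and 996 of 27305 promoters of the table (3.65%) held it, as did 387 of the 12724 tested genes with a promoter entry (3.04%). Among the antiviral effectors, 29 of 42 with an entry held it (69.0%), 20 of the 29 called higher in J82 (69.0%) and 9 of the 13 not called (69.2%). It was held by 2 of 5 ISG15 conjugation genes with an entry, 3 of 6 sensors and 0 of 6 transcription factors of the pathway. Over all genes called higher in J82 the count was 62 of 1090 (5.69%), and over those called lower 24 of 662 (3.63%). A match is a description of letters and not a bound site.

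The antiviral effectors, proteins that degrade, trap or block viral components, were mostly higher in J82 than in the other lines. Of the 54 on the list, all tested, 35 were called higher than the mean and 0 lower, and 28 were called higher than each line. For 38, both J82 libraries stood above all 6 others, as they did for 15.7% of all genes, and 12.7% of all genes had both below. The median log2 fold change was 2.85, or 2.53 with groups at the floor set at 3 counts, beside 0.05 over all genes. Summed over the list, the level was 18216 and 14405 CPM in J82, 6086 and 5308 in TCCSUP, 2646 and 2742 in RT112 and 2383 and 2482 in 253J.

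TCCSUP was the nearest line. The median difference of J82 from TCCSUP was 1.34 on the log2 scale, against 2.85 from RT112 and 3.92 from 253J. At the thresholds used for the mean, 11 members were higher in J82 than in TCCSUP, 36 than in RT112 and 40 than in 253J, beside 6.29%, 10.3% and 9.07% of all genes, and 1 member was lower in each of the 3. J82 had the highest mean of the 4 lines for 44 members, and TCCSUP came next for 38 of these. The plot of 18 interferon genes by library shows this order gene by gene.

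The oligoadenylate synthetases make the second messenger that activates RNase L. OAS1 was at 252 and 234 CPM in J82, 48.4 and 39 in TCCSUP, 76.9 and 75.7 in RT112 and 12.8 and 15.9 in 253J. OAS2 was at 332 and 247 CPM in J82, 50.1 and 39.9 in TCCSUP, 1.94 and 1.83 in RT112 and 0.0674 and 0.216 in 253J. OAS3 was at 769 and 499 CPM in J82, 129.9 and 118 in TCCSUP, 51.9 and 62.5 in RT112 and 47.7 and 48.7 in 253J. In all 3 the J82 libraries stood above every other library, with RT112 next for OAS1 and TCCSUP next for the others. The log2 fold changes against the mean were 2.74 ± 0.11 (adjusted p = 4.49e-08), 6.97 ± 0.17 (adjusted p = 3.23e-09) and 3.18 ± 0.15 (adjusted p = 8.86e-08), as estimate ± standard error. The standard error was derived from the test, as the log2 fold change over the square root of its F statistic. It does not cover how a line at 0 is handled. For COL3A1, at 0 in 253J, the estimate was 10.80 ± 0.16, but 9.26 with 253J set at 3 counts.

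The largest log2 fold change among the effectors called was that of IFI44L, with 326 and 332 CPM in J82, 98 and 67.4 in TCCSUP, 0.394 and 0.505 in RT112 and 0 in both 253J libraries. J82 was at least 3149-fold higher than 253J and 3.98-fold higher than TCCSUP. IFI27, a mitochondrial and nuclear envelope protein that is among the most inducible genes of the pathway, was at 442 and 471 CPM in J82, 56.6 and 42.5 in TCCSUP, 0 and 0.158 in RT112 and 0.640 and 0.756 in 253J, a log2 fold change of 8.33 ± 0.21 (adjusted p = 3.47e-09). Both genes were below 1 CPM in RT112 and 253J, and TCCSUP lay between these and J82.

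Entry and cell death genes showed the same order of lines. IFITM1, a membrane protein that hinders viral entry, was at 1099 and 729 CPM in J82, 79.2 and 66.7 in TCCSUP, 0.788 and 0.820 in RT112 and 0.472 and 0.468 in 253J, and its log2 fold change was 8.23 ± 0.17 (adjusted p = 1.39e-09). IFITM3 was at 246 and 181 CPM in J82, 88.9 and 82 in TCCSUP, 3.85 and 3.28 in RT112 and 0 in both 253J libraries. XAF1, a promoter of apoptosis, was at 153 and 113 CPM in J82, 51 and 42.7 in TCCSUP, 0.576 and 0.599 in RT112 and 0 in both 253J libraries. Both were called higher than each line. The IFITM genes are close copies of each other, so reads may be shared among them, and IFITM2 did not follow: it was at 0.847 and 0.555 CPM in J82, 14.3 and 16.2 in TCCSUP, 0.273 and 0.315 in RT112 and 0 in both 253J libraries, with TCCSUP highest.

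The MX proteins are GTPases that trap viral nucleocapsids. MX2 was at 189 and 166 CPM in J82, 46 and 42.3 in TCCSUP, 7.85 and 8.90 in RT112 and 0 in both 253J libraries, at least 1698-fold higher in J82 than in 253J and 4.02-fold higher than TCCSUP. MX1 was at 1047 and 993 CPM in J82, 314 and 249 in TCCSUP, 8.61 and 7.92 in RT112 and 2.93 and 2.52 in 253J (log2 fold change 5.78 ± 0.12, adjusted p = 1.39e-09), and IFI6, an inner mitochondrial membrane protein, at 2252 and 1256 CPM in J82, 207 and 130.0 in TCCSUP, 10.7 and 8.80 in RT112 and 24.2 and 27.2 in 253J (5.65 ± 0.22, adjusted p = 3.14e-08). For MX1 the J82 libraries were nearly level, while for IFI6 replicate 1 was well above replicate 3. MX1 and IFI6 were chosen after their values were seen, as were all the effectors named from here to the end of the next paragraph. IFIT1, which binds viral RNA without the host cap mark, was at 450.5 and 576 CPM in J82, 166 and 151 in TCCSUP, 8.97 and 6.66 in RT112 and 14.8 and 14.1 in 253J. BST2, which tethers budding virus to the cell, was at 739 and 571 CPM in J82, 192 and 184 in TCCSUP, 20.4 and 18 in RT112 and 0 and 0.180 in 253J. Their log2 fold changes were 4.29 ± 0.13 and 6.57 ± 0.20.

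Of the 19 effectors not called, some were higher in J82 by less than the threshold. EIF2AK2, the RNA-dependent kinase PKR, was at 196 and 177 CPM in J82, 115 and 106 in TCCSUP, 93.3 and 96.9 in RT112 and 78.3 and 86.9 in 253J (0.97 ± 0.10). ADAR, the RNA-editing enzyme, was at 437 and 378 CPM in J82, 309 and 296 in TCCSUP, 175 and 178 in RT112 and 133 and 124 in 253J (1.10 ± 0.10). Others were as high or higher in another line. GBP2, a guanylate-binding protein that is a target of interferon gamma in particular, was at 28.9 and 24.1 CPM in J82, 68.3 and 63.9 in TCCSUP, 134 and 121 in RT112 and 1.92 and 1.51 in 253J, so RT112 and TCCSUP were above J82. GBP3 was at 73.9 and 58.2 CPM in J82, 70.8 and 76.8 in TCCSUP, 106 and 102 in RT112 and 47.7 and 42.2 in 253J, with a log2 fold change of -0.09 ± 0.12 (adjusted p = 0.6). Of the guanylate-binding proteins, GBP4 and GBP5 were called higher and GBP1, GBP2 and GBP3 were not. Without a limit on the fold change, 50 of the 54 effectors had an adjusted p under 0.01 with J82 higher, and 0 with J82 lower. Of all 18307 genes tested, 7486 had an adjusted p under 0.01 in either direction. LAMP3 and GBP5 are among those called, though LAMP3, at 7.76 and 1.80 CPM in J82, 2.09 and 1.92 in RT112, 18.9 and 22 in 253J and 0 in both TCCSUP libraries, was highest in 253J, and GBP5 overlapped TCCSUP.

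The ISG15 system was higher in J82 as well. ISG15 is attached to other proteins by the E1 enzyme UBA7, the E2 enzyme UBE2L6 and the ligase HERC5, and USP18 removes it and also damps signalling at the interferon receptor. Of 7 genes on the list, 6 were called higher than the mean and the same 6 higher than each line, and the median log2 fold change was 3.33. ISG15 was at 947 and 924 CPM in J82, 137 and 130.4 in TCCSUP, 17 and 13.3 in RT112 and 16 and 15.5 in 253J. Its log2 fold change was 4.88 ± 0.11 (adjusted p = 1.75e-09), and J82 was 7.01-fold higher than TCCSUP, the nearest line. HERC5 was at 197 and 209 CPM in J82, 38 and 32.8 in TCCSUP, 1.91 and 1.26 in RT112 and 0.101 and 0.360 in 253J (6.43 ± 0.17, adjusted p = 4.14e-09), and its relative HERC6 at 138 and 137 CPM in J82, 29.2 and 25.9 in TCCSUP, 5.52 and 5.68 in RT112 and 4.28 and 4.64 in 253J (3.96 ± 0.09, adjusted p = 2.36e-09). In these 3 genes the J82 libraries were alike, the order of lines was J82, TCCSUP and then the others, and no groups of J82 and another line overlapped.

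The enzymes showed smaller differences. USP18 was at 103 and 89.9 CPM in J82, 18.9 and 19.2 in TCCSUP, 4.49 and 4.98 in RT112 and 8.76 and 10.5 in 253J (3.33 ± 0.11, adjusted p = 9.58e-09). UBE2L6 was at 141 and 120.1 CPM in J82, 36.1 and 38 in TCCSUP, 10.2 and 8.23 in RT112 and 22.8 and 22.7 in 253J (2.72 ± 0.11, adjusted p = 3.16e-08). UBA7 was at 78.6 and 53.4 CPM in J82, 24.2 and 21.2 in TCCSUP, 10.9 and 6.81 in RT112 and 6.23 and 6.44 in 253J (2.60 ± 0.18, adjusted p = 1.17e-06). TRIM25, a ligase for both ISG15 and the sensor RIG-I, was the member not called, at 175 and 128 CPM in J82, 86 and 90.2 in TCCSUP, 70.3 and 71.5 in RT112 and 90.7 and 93.7 in 253J (0.86 ± 0.12, adjusted p = 0.000201), although both J82 libraries were above the other 6.

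Most cytosolic sensors of RNA and DNA were higher as well. Of 11 tested, 7 were called higher than the mean and 4 than each line, with a median log2 fold change of 3.03, or 2.35 with groups at the floor set at 3 counts. DDX58, which encodes RIG-I, was at 635 and 594 CPM in J82, 106 and 99.5 in TCCSUP, 22.1 and 23 in RT112 and 57.7 and 51.3 in 253J (3.61 ± 0.10, adjusted p = 4.14e-09; named after its values were seen). IFIH1, which encodes the long-RNA sensor MDA5, was at 163 and 129 CPM in J82, 38.2 and 36 in TCCSUP, 6.82 and 5.02 in RT112 and 26.1 and 24.9 in 253J (3.04 ± 0.12, adjusted p = 3.92e-08). DHX58, which encodes the related LGP2, was at 55.3 and 51.3 CPM in J82, 5.18 and 4.79 in TCCSUP, 3.79 and 3.0 in RT112 and 16.1 and 16.8 in 253J (3.03 ± 0.11, adjusted p = 2.69e-08). CGAS, the DNA sensor that makes cGAMP, was at 94.6 and 106 CPM in J82, 33.8 and 35.1 in TCCSUP, 2.36 and 1.70 in RT112 and 45.1 and 30.1 in 253J (2.86 ± 0.15, adjusted p = 2.01e-07). All 4 stood above all 6 other libraries in both J82 libraries. MAVS and TBK1, which relay the signal, were not called, with log2 fold changes of 0.11 ± 0.13 and 0.10 ± 0.11.

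For 3 sensors called against the mean the call rested on lines at or near 0. STING1, the receptor for cGAMP, was at 12.9 and 7.80 CPM in J82, 13.5 and 14.8 in TCCSUP, 21.3 and 20.1 in RT112 and 0 in both 253J libraries, so J82 was below TCCSUP and RT112, and the log2 fold change turned from 3.27 to -0.73 without 253J. AIM2, an inflammasome DNA sensor, was at 16.4 and 9.47 CPM in J82, 8.71 and 7.91 in TCCSUP, 2.58 and 2.65 in RT112 and 0 and 0.0360 in 253J (4.06 ± 0.30), and without 253J it was 1.47, below the threshold. ZBP1, a sensor of Z-form nucleic acid, was at 1.15 and 0.457 CPM in J82, 0.488 and 0.327 in TCCSUP and 0 in both RT112 and 253J libraries, with TCCSUP and J82 overlapping.

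Among the transcription factors of the pathway, 5 of 12 tested were called higher than the mean and 3 than each line (median log2 fold change 1.34). IRF7, which drives a second wave of interferon genes, was at 228 and 185 CPM in J82, 9.91 and 11.1 in TCCSUP, 9.97 and 8.17 in 253J and 0 in both RT112 libraries, at least 2223-fold higher in J82 than in RT112 and 19.6-fold higher than TCCSUP. IRF9 was at 73.2 and 79.5 CPM in J82, 43.6 and 38.3 in TCCSUP, 9.0 and 8.42 in RT112 and 9.84 and 12.1 in 253J (2.28 ± 0.11, adjusted p = 1.12e-07). STAT2, at 347 and 285 CPM in J82, 145 and 133 in TCCSUP, 76.3 and 65.9 in RT112 and 49.3 and 52 in 253J, missed the threshold of 2 with 1.99 ± 0.11, and both J82 libraries were above the others. BATF2 and ETV7, low in level, were at 4.98 and 2.61 CPM and 12.2 and 7.21 CPM in J82, against at most 1.20 and 3.94 CPM elsewhere. IRF1 was at 71.8 and 37.4 CPM in J82, 57.6 and 60.4 in TCCSUP, 31.5 and 30.3 in RT112 and 44.1 and 41.2 in 253J. STAT3 was at 159.9 and 139 CPM in J82, 103 and 108 in TCCSUP, 77.7 and 83.6 in RT112 and 188 and 167 in 253J. Neither was called. For IRF1 the J82 libraries overlapped other lines, and for STAT3 they lay between 253J and TCCSUP. IRF8 had 0 counts in both J82 libraries and was not tested.

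Most interferon ligands were at or under the floor. IFNB1, which encodes interferon beta, was at 1.59 and 0.490 CPM in J82, 0.113 and 0.0726 in TCCSUP, 0 and 0.0631 in RT112 and 0.202 and 0.252 in 253J. Its log2 fold change was 3.50 ± 0.61 (adjusted p = 0.000792), called higher, and it was not called without J82 replicate 1 (2.40, adjusted p = 0.0155). IFNE, at 4.34 and 2.61 CPM in J82, 6.72 and 7.18 in TCCSUP, 7.21 and 10.8 in 253J and 0 in both RT112 libraries, was called against the mean, though TCCSUP and 253J were above J82, and the value turned to -1.19 without RT112. IFNA2 had 0 counts in both J82 libraries, and 10 of the 13 ligands listed there were at or under the floor in J82.

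The receptors and kinases were mixed. Of 11 tested, 0 were called higher and 1, IFNAR2, was called lower, against the mean and against each line (median log2 fold change -0.08). IFNAR1 was at 25.5 and 21.5 CPM in J82, 66.9 and 61.1 in TCCSUP, 108 and 127 in RT112 and 88.8 and 84.4 in 253J. IFNAR2 was at 9.28 and 5.71 CPM in J82, 16.3 and 14 in TCCSUP, 56.5 and 61.6 in RT112 and 38.5 and 37.7 in 253J. Both J82 libraries were below the other 6 for both chains, with log2 fold changes of -1.88 ± 0.13 (adjusted p = 1.4e-06) and -2.11 ± 0.19 (adjusted p = 8.04e-06). Also below all 6 was IL10RB, a chain of the interferon lambda receptor, which lies next to them in the RefSeq table, at 34.1 and 22.6 CPM in J82, 58 and 52.6 in TCCSUP, 114 and 108 in RT112 and 79.5 and 92.7 in 253J. IFNGR1, of the interferon gamma receptor, went the other way without being called, at 154 and 159 CPM in J82, 49.3 and 41.4 in TCCSUP, 124 and 148 in RT112 and 72.9 and 74.4 in 253J (1.02 ± 0.11, adjusted p = 3.02e-05), with both J82 libraries above the other 6, as for the kinase JAK2 (0.35 ± 0.11). JAK1 and TYK2 had log2 fold changes of -0.08 ± 0.11 and -0.28 ± 0.10. The inhibitors SOCS1 and SOCS3 were not called either (1.02 ± 0.40 and 0.29 ± 0.12).

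Antigen presentation on class I differed less than the antiviral list. Of 18 genes tested, 4 were called higher than the mean and 2 than each line, and the median log2 fold change was 0.95. HLA-F, a non-classical class I gene, stood out, at 446 and 218 CPM in J82, 1.95 and 2.65 in TCCSUP, 0.303 and 0.505 in RT112 and 16.8 and 20.4 in 253J, a log2 fold change of 6.999 ± 0.25 (adjusted p = 1.87e-08). HLA-B was at 2873 and 1608 CPM in J82, 977 and 795 in TCCSUP, 26.2 and 24.2 in RT112 and 410.2 and 415 in 253J (3.42 ± 0.18, adjusted p = 2.08e-07). RT112 was the lowest line for both. HLA-C, at 974 and 486 CPM in J82, 947 and 799 in TCCSUP, 156 and 148 in RT112 and 583 and 603 in 253J, was not called, and J82 and TCCSUP overlapped. HLA genes are alike in sequence and vary between lines, so reads may be lost or shared among them. NLRC5, which drives class I genes, was at 59 and 32.8 CPM in J82, 40.5 and 43.8 in TCCSUP, 1.12 and 1.17 in RT112 and 5.69 and 6.77 in 253J (2.78 ± 0.19, adjusted p = 1.19e-06), and J82 and TCCSUP overlapped. For the peptide transporter TAP1 and the light chain B2M, neither called, the log2 fold changes were 1.40 ± 0.18 and 1.22 ± 0.13.

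Replicate 1 of J82 was above replicate 3 for 16 of these 18 genes, by a median of 0.68 on the log2 scale, and for 43 of the 54 antiviral effectors, by a median of 0.34. Over all genes 48.1% were higher in replicate 1 and the median was 0, though 1504 were over 2-fold higher there and 313 over 2-fold lower. HLA-B, HLA-C and HLA-F were each clearly higher in replicate 1, as their values above show. The plot of the replicate gap by list shows which lists shared this. What set the replicates apart was not tested.

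**Figure D1:**
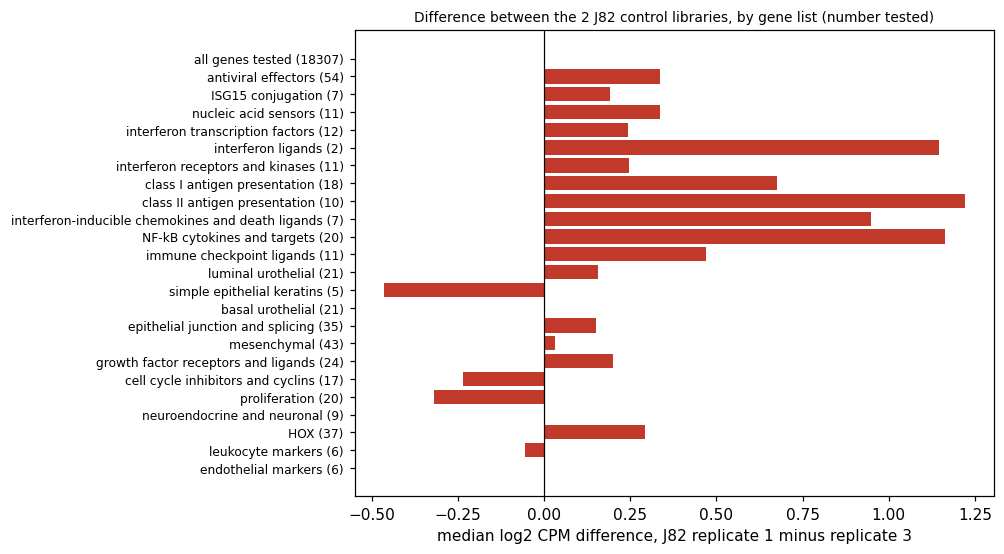
Median over the tested members of each list of the log2 CPM difference between J82 control replicates 1 and 3, as bars from 0. The class II and NF-kB lists, the 2 interferon ligands tested and the chemokine and death ligand list have the longest bars towards replicate 1. Their bars are at 1.22, 1.16, 1.15 and 0.95. The proliferation list and simple keratins point to replicate 3, at -0.32 and -0.47.

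The class II list in J82, summed, stood between 253J and the other lines. Of 10 tested, 3 were called higher than the mean and 1, HLA-DRA, than each line, with 0 lower (median 1.36, or 0.99 with groups at the floor set at 3 counts). Summed over the list, the level was 118 and 96.5 CPM in J82, 63.1 and 70.6 in TCCSUP, 42.1 and 32.7 in RT112 and 224 and 250.4 in 253J. HLA-DRA was at 4.94 and 1.76 CPM in J82, 0.225 and 0.327 in TCCSUP, 0 and 0.144 in 253J and 0 in both RT112 libraries, a log2 fold change of 6.24 ± 0.68 (adjusted p = 6.41e-05). CD74, the invariant chain, was at 3.42 and 1.44 CPM in J82, 1.73 and 2.39 in TCCSUP, 136 and 151 in 253J and 0 in both RT112 libraries, so 253J stood far above J82, and CIITA, the master regulator of class II, was at 1.12 and 0.392 CPM in J82, 0.601 and 0.653 in TCCSUP, 0.212 and 0.410 in RT112 and 0 and 0.216 in 253J. HLA-DMB, at 1.63 and 0.979 CPM in J82, 0.338 and 0 in TCCSUP, 0.674 and 0.972 in 253J and 0 in both RT112 libraries, was called, as was the protease CTSS, at 24.6 and 10.5 CPM in J82, 18.3 and 19.7 in TCCSUP, 23.9 and 16 in RT112 and 0.135 and 0.216 in 253J. The CTSS value rested on 253J and turned from 2.11 to -0.15 without it. Most of the summed level of 253J was CD74, and most of that of J82 came from members not named here. Replicate 1 was higher for 8 of the 10, by a median of 1.22.

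The 3 interferon-inducible chemokines tested, CCL5, CXCL10 and CXCL11, were highest in J82. They were listed with IDO1, TNFSF13B, the death receptor FAS and the death ligand TNFSF10. Of these 7 genes, 5 were called higher and 1, FAS, lower than the mean. Against each line, 3 were called higher and FAS lower. The median was 6.60, or 4.55 with groups at the floor set at 3 counts. Summed over the list, the level was 153 and 73.8 CPM in J82 and 61.6 and 49.7 in TCCSUP. It was 156 and 126 in RT112 and 404 and 409 in 253J. CCL5, which attracts T cells, was at 65.6 and 34 CPM in J82, 9.91 and 7.37 in TCCSUP, 0.202 and 0 in 253J and 0 in both RT112 libraries (8.30 ± 0.42, adjusted p = 5.02e-07). CXCL10 was at 17.2 and 7.47 CPM in J82, 0.182 and 0.158 in RT112, 0.202 and 0.576 in 253J and 0 in both TCCSUP libraries (7.55 ± 0.49, adjusted p = 2.22e-06). CXCL11 was at 4.23 and 2.61 CPM in J82, 0.303 and 0.221 in RT112, 0 and 0.0720 in 253J and 0 in both TCCSUP libraries (6.60 ± 0.54, adjusted p = 1.02e-05). CXCL10 and CXCL11 bind CXCR3 on T cells, and no line overlapped J82 for any of the 3. CXCL9, the other ligand of CXCR3 and mainly a target of interferon gamma, had 0 counts in all 8 libraries. IDO1, which breaks down tryptophan, was at 11.3 and 3.59 CPM in J82, 3.94 and 2.69 in TCCSUP, 0.0337 and 0 in 253J and 0 in both RT112 libraries. TNFSF13B was at 2.24 and 1.66 CPM in J82, 0.413 and 0.508 in TCCSUP, 0.0909 and 0 in RT112 and 0.270 and 0.252 in 253J, and both were called against the mean alone. Every one of the 7 was higher in replicate 1, by a median of 0.95.

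The death receptor FAS, on the same list, went the other way. It was at 4.30 and 3.0 CPM in J82, 37.6 and 31.3 in TCCSUP, 26.2 and 29.7 in RT112 and 239 and 206 in 253J, called lower than the mean (-4.03 ± 0.19, adjusted p = 1.06e-07) and than each line. TNFSF10, the death ligand TRAIL, which binds other receptors, was at 48.3 and 21.5 CPM in J82, 9.76 and 7.84 in TCCSUP, 129 and 95.7 in RT112 and 164 and 202 in 253J, between the lines.

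Of 20 NF-kB cytokines and targets tested, 7 were called higher than the mean and 1, IL6, than each line (median 1.25, or 0.53 with groups at the floor set at 3 counts). IL6 was at 89.6 and 15.2 CPM in J82, 5.75 and 6.06 in TCCSUP, 7.85 and 5.94 in 253J and 0 in both RT112 libraries, and its log2 fold change was 6.56 ± 0.69 (adjusted p = 5.14e-05). The J82 libraries were far apart, and replicate 3 was still above the others. TNFAIP3, an inhibitor of NF-kB, was at 49.5 and 10.2 CPM in J82, 11.4 and 15.7 in TCCSUP, 2.30 and 4.48 in RT112 and 8.02 and 6.37 in 253J, and its log2 fold change of 2.11 ± 0.43 fell to 0.54 without replicate 1 of J82, no longer called. CXCL8 was at 29.6 and 2.02 CPM in J82, 0.751 and 1.45 in TCCSUP, 2.30 and 5.52 in RT112 and 82.6 and 58.7 in 253J, and the J82 libraries lay on either side of RT112. For CXCL1, CXCL3 and CCL2 the calls rested on lines at 0, and 253J was above J82 in all 3. For CCL2 the values were 1.35 and 1.24 CPM in J82, 0.113 and 0 in TCCSUP, 72.7 and 59.7 in 253J and 0 in both RT112 libraries. IL1A, at 5.15 and 6.14 CPM in J82, 3.53 and 4.25 in TCCSUP, 1.49 and 2.02 in RT112 and 0 in both 253J libraries, was called with both J82 libraries above all others. Its log2 fold change was 4.20 against the mean, or 2.66 with 253J set at 3 counts, and 0.54 against TCCSUP (adjusted p = 0.159). Replicate 1 was higher for 18 of the 20, by a median of 1.16.

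Among the immune checkpoint ligands, CD274 and PDCD1LG2 were called higher than the mean and 0 of the 11 tested than each line (median -0.00). CD274, which encodes PD-L1, was at 78.4 and 66.6 CPM in J82, 42.1 and 41.9 in TCCSUP, 2.18 and 3.03 in RT112 and 7.11 and 7.27 in 253J, so J82 and TCCSUP lay together above RT112 and 253J. Its log2 fold change was 2.97 ± 0.12 (adjusted p = 3.65e-08) against the mean and 0.79 against TCCSUP (adjusted p = 0.00185). PDCD1LG2, which encodes PD-L2, was at 37.8 and 26.6 CPM in J82, 36.5 and 32.1 in TCCSUP, 0.0909 and 0.978 in RT112 and 0 in both 253J libraries, and J82 and TCCSUP overlapped. CD276, at 61.1 and 35.9 CPM in J82, 155 and 151 in TCCSUP, 59.4 and 63.4 in RT112 and 155 and 185 in 253J, had its lowest value in J82 replicate 3 and was not called.

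Most luminal urothelial genes were lower in J82 than in RT112, and far fewer were lower when set against the other lines. Of 21 luminal genes tested, 1 was called higher and 4 lower than the mean, 2 of them lower than each line. The median log2 fold change was -3.23, or -2.05 with groups at the floor set at 3 counts. By line, at the thresholds used for the mean, 19 were lower and 1 higher than in RT112, 5 lower and 1 higher than in TCCSUP and 2 lower and 3 higher than in 253J. Among all genes 11% were lower than in RT112, 9.95% than in TCCSUP and 11.4% than in 253J. The medians by line were -6.49 against RT112, -1.25 against TCCSUP and 0.27 against 253J. Summed over the list, the level was 182 and 153 CPM in J82, 228 and 214 in TCCSUP, 170.3 and 197 in 253J and 3962 and 4258 in RT112, so J82 lay with 253J and TCCSUP. In J82 10 of the 22 listed genes were at the floor, among them UPK1A, UPK1B, UPK2, UPK3A and KRT20. The mean contrast could not call those that a further line lacked as well. UPK1B, a uroplakin of the apical plaques, was at 0 CPM in both J82 libraries, 1.84 and 0.726 in TCCSUP, 1204 and 1412 in RT112 and 0 in both 253J libraries, so RT112 alone had it at a high level. UPK1B, UPK2, UPK3A, UPK1A and KRT20 were named after their values were seen.

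The regulators were graded. FOXA1 was at 1.29 and 1.08 CPM in J82, 9.43 and 8.64 in TCCSUP, 41.6 and 41.3 in RT112 and 5.76 and 5.22 in 253J (-3.42 ± 0.18, adjusted p = 1.8e-07). ELF3, an epithelial ETS factor, was at 0.948 and 0.131 CPM in J82, 3.45 and 3.88 in TCCSUP, 207 and 197 in RT112 and 41.1 and 48.2 in 253J (-5.90 ± 0.38, adjusted p = 9.27e-07). Both were called lower than each line, and for both RT112 was highest and J82 lowest. GATA3 was at 1.35 and 0 CPM in J82, 5.18 and 6.75 in TCCSUP, 33.8 and 35.8 in RT112 and 0.303 and 0.396 in 253J, and its call (log2 fold change -2.64 ± 0.69, adjusted p = 0.00891) was lost with DESeq2 (adjusted p = 0.0865) and without RT112 (-1.11). PPARG was at 21.9 and 29.1 CPM in J82, 88.7 and 79.9 in TCCSUP, 179.6 and 199 in RT112 and 5.32 and 6.30 in 253J, and J82 lay between 253J and TCCSUP. The single luminal gene called higher was TFAP2A, at 33.7 and 24.1 CPM in J82, 8.11 and 8.56 in TCCSUP, 4.73 and 6.47 in RT112 and 5.02 and 3.74 in 253J (2.29 ± 0.17, adjusted p = 2.59e-06), a factor of early ectoderm and neural crest as well.

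**Figure D2:**
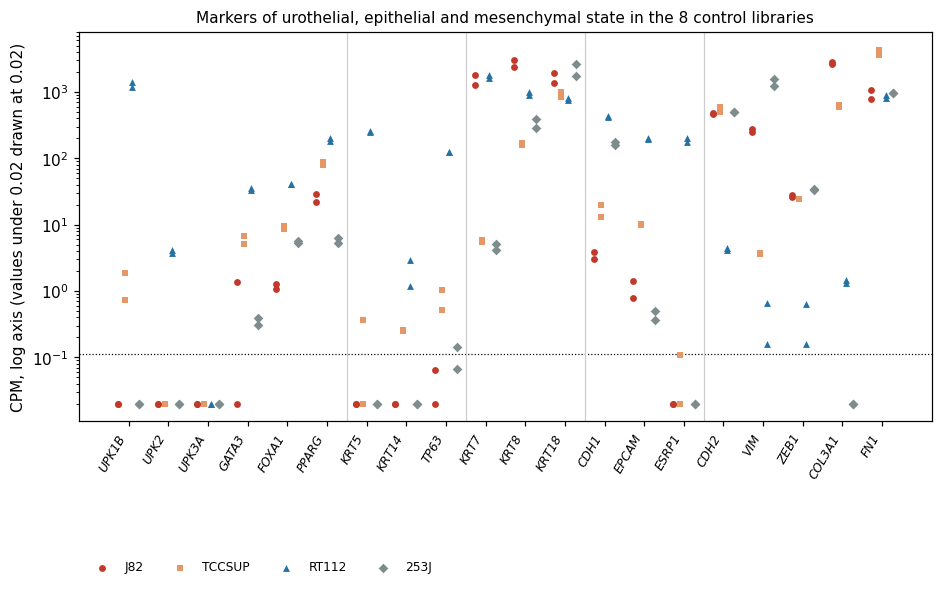
CPM on a log axis of luminal, basal, simple keratin, epithelial and mesenchymal genes in each of the 8 control libraries, 2 points per line (J82, TCCSUP, RT112, 253J), with values under 0.02 drawn at 0.02. J82 points are low or absent for uroplakins, KRT5, KRT14, TP63 and CDH1, level with RT112 for KRT7, and among the highest for KRT8 and COL3A1.

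Basal genes were likewise lower than in RT112 above all. Of 21 basal genes tested, 3 were called higher and 8 lower than the mean, and 0 higher and 3 lower than each line (median -3.37, or -2.65 with groups at the floor set at 3 counts). By line, 17 were lower and 0 higher than in RT112, 6 lower and 2 higher than in TCCSUP and 4 lower and 4 higher than in 253J. The medians were -7.94, -0.81 and 0. Of all genes, 11% were lower and 10.3% higher than in RT112, 9.95% and 6.29% than in TCCSUP and 11.4% and 9.07% than in 253J. KRT5 and KRT14 had 0 counts in J82. KRT5 was at 0 CPM in both J82 libraries, 0 and 0.363 in TCCSUP, 252 and 263 in RT112 and 0 in both 253J libraries, so RT112 again stood alone. TP63, the transcription factor of basal cells, was at 0 and 0.0653 CPM in J82, 0.526 and 1.05 in TCCSUP, 126 and 124 in RT112 and 0.0674 and 0.144 in 253J (-5.88 ± 0.71, adjusted p = 7.25e-05). LAMB3, a chain of laminin-332, was lower than in each line, at 11.3 and 4.15 CPM in J82, 32.8 and 33.5 in TCCSUP, 458 and 533 in RT112 and 46.8 and 64.9 in 253J (-3.65 ± 0.35, adjusted p = 1.4e-05). SFN, the epithelial 14-3-3 protein, was at 0.102 and 0.0653 CPM in J82, 0.563 and 0.472 in TCCSUP, 50.7 and 47.4 in RT112 and 29.1 and 26 in 253J, called lower than each line.

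The 3 basal genes called higher were not highest in J82. The desmosomal cadherin DSC3 was at 70.5 and 94.7 CPM in J82, 153 and 144 in RT112 and 0 in both TCCSUP and 253J libraries. DSC2 was at 12.8 and 14.6 CPM in J82, 29 and 26.3 in RT112, 14.7 and 15.8 in 253J and 0 in both TCCSUP libraries. KRT17 was at 58 and 43.1 CPM in J82, 14.4 and 13.2 in TCCSUP, 988 and 1140.2 in RT112 and 0 in both 253J libraries. In each, RT112 was above J82 and the call came from lines at 0.

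Simple epithelial keratins were present, and at high levels. Of 5 tested, 2 were called higher than the mean and 1 than each line (median 0.50). KRT8 was at 2366 and 3058 CPM in J82, 170.0 and 159.7 in TCCSUP, 917 and 999 in RT112 and 397 and 286 in 253J (2.84 ± 0.14, adjusted p = 1.6e-07), above every other line. Its partner KRT18 was at 1388 and 1916 CPM in J82, 854 and 984 in TCCSUP, 763 and 826 in RT112 and 2601 and 1746 in 253J, and 253J overlapped J82. KRT7 was at 1270.5 and 1788 CPM in J82, 5.45 and 5.84 in TCCSUP, 1637 and 1793 in RT112 and 4.21 and 5.04 in 253J, so J82 and RT112 were both far above TCCSUP and 253J (5.43 ± 0.14, adjusted p = 4.14e-09). KRT19, at 270.0 and 478 CPM in J82, 106 and 113 in TCCSUP, 1851 and 1694 in RT112 and 849 and 790.3 in 253J, was below RT112 and 253J. The keratins were the list with replicate 3 most above replicate 1, the median of replicate 1 minus replicate 3 being -0.47, with 1 of 5 genes higher in replicate 1.

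Nearly all junction and epithelial splicing genes were lower in J82 than in RT112, and fewer were lower when set against TCCSUP or 253J. Of 35 tested, 1 was called higher and 12 lower than the mean, 8 of these lower than each line, and both J82 libraries were below all 6 others for 12 (median -2.81, or -2.95 with groups at the floor set at 3 counts). By line, 32 were lower and 0 higher than in RT112, 10 lower and 3 higher than in TCCSUP and 9 lower and 7 higher than in 253J. The medians were -6.93, -0.86 and -0.46. The shares of all genes were 11% lower and 10.3% higher than in RT112, 9.95% and 6.29% than in TCCSUP and 11.4% and 9.07% than in 253J. CDH1, which encodes E-cadherin, was at 3.01 and 3.82 CPM in J82, 19.6 and 12.9 in TCCSUP, 427 and 440.2 in RT112 and 178 and 161 in 253J (-4.95 ± 0.22, adjusted p = 7.28e-08). The order was RT112, 253J, TCCSUP and J82, with no overlap. ITGB6, a subunit of the epithelial integrin that activates TGF-beta, was at 0 CPM in both J82 libraries, 9.13 and 4.90 in TCCSUP, 470.0 and 497 in RT112 and 133 and 144 in 253J, so J82 was at least 4846-fold lower than RT112 and 70.3-fold lower than TCCSUP. ITGB4, of the hemidesmosome, was at 6.10 and 3.92 CPM in J82, 32.8 and 29.1 in TCCSUP, 629 and 822 in RT112 and 26.3 and 38 in 253J (-4.16 ± 0.25, adjusted p = 6.08e-07). JUP, plakoglobin, was at 6.37 and 4.01 CPM in J82, 36.2 and 41.6 in TCCSUP, 219 and 239.9 in RT112 and 11.1 and 13.5 in 253J (-3.21 ± 0.20, adjusted p = 6.81e-07). CLDN1, a tight junction claudin, was at 37.9 and 20.7 CPM in J82, 96.7 and 93.1 in TCCSUP, 283 and 294 in RT112 and 533 and 457 in 253J (-3.02 ± 0.23, adjusted p = 2.8e-06). EPCAM, at 0.779 and 1.44 CPM in J82, 9.80 and 10.4 in TCCSUP, 197 and 205 in RT112 and 0.371 and 0.504 in 253J, was called lower against the mean, though 253J had still less.

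ESRP1, an epithelial splicing regulator, and GRHL2, an epithelial transcription factor, were at the floor in J82, as in 253J. ESRP1 was at 0 CPM in both J82 libraries, 0 and 0.109 in TCCSUP, 176 and 200.3 in RT112 and 0 in both 253J libraries. GRHL2 was at 0 CPM in both J82 libraries, 0.0376 and 0.254 in TCCSUP, 181 and 206 in RT112 and 0 in both 253J libraries, so neither could be called by the mean. An exception on the list was OCLN, occludin. OCLN was at 135 and 133 CPM in J82, 96.5 and 87 in TCCSUP, 30.5 and 36.6 in RT112 and 46.6 and 51.9 in 253J, above all others, with a log2 fold change of 1.33 ± 0.11 that missed the threshold.

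Mesenchymal genes were mixed, and the answer depended on the line compared. Of 43 tested, 16 were called higher and 4 lower than the mean, and 3 higher and 4 lower than each line (median 1.25, or 0.23 with groups at the floor set at 3 counts). At the thresholds used for the mean, 21 were higher and 8 lower than in RT112, and 17 higher and 10 lower than in 253J. Against TCCSUP the balance turned, with 5 higher and 24 lower. Among all genes 10.3% were higher and 11% lower than in RT112, 9.07% and 11.4% than in 253J and 6.29% and 9.95% than in TCCSUP.

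COL3A1, a fibrillar collagen, was called higher than each line, at 2656 and 2853 CPM in J82, 599.7 and 648 in TCCSUP, 1.45 and 1.32 in RT112 and 0 in both 253J libraries. The log2 fold change was 10.80 ± 0.16 (adjusted p = 1.02e-09), and J82 was 4.42-fold higher than TCCSUP. COL5A1 was at 288 and 179 CPM in J82, 0.338 and 0.145 in TCCSUP, 71 and 92.3 in RT112 and 0 and 0.108 in 253J (7.81 ± 0.27, adjusted p = 1.45e-08). Both were among the 3 genes higher than each line. COL1A2 was at 263 and 182 CPM in J82, 4799.7 and 5068 in TCCSUP, 0.121 and 0.0946 in RT112 and 0 and 0.0720 in 253J. POSTN, periostin, was at 155 and 118 CPM in J82, 822 and 885 in TCCSUP, 0.0606 and 0 in RT112 and 0 in both 253J libraries, so for both TCCSUP exceeded J82 while RT112 and 253J were near 0. COL1A1, the partner chain of COL1A2, was at 2.57 and 1.31 CPM in J82, 849.9 and 1023 in TCCSUP, 4.12 and 5.11 in RT112 and 27.9 and 28.6 in 253J, called lower than each line (-4.68 ± 0.26, adjusted p = 3e-07).

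Of the mesenchymal regulators and cytoskeleton, CDH2, N-cadherin, was at 458 and 481 CPM in J82, 604 and 503 in TCCSUP, 4.49 and 4.23 in RT112 and 502 and 497 in 253J, so the call against the mean (log2 fold change 2.14 ± 0.11) rested on RT112, without which the value was -0.16. VIM, vimentin, was at 248 and 282 CPM in J82, 3.76 and 3.56 in TCCSUP, 0.667 and 0.158 in RT112 and 1573 and 1228 in 253J, below 253J and far above TCCSUP and RT112. ZEB1, a repressor of CDH1, was at 28.2 and 26.3 CPM in J82, 24.3 and 24.4 in TCCSUP, 0.637 and 0.158 in RT112 and 34.9 and 33 in 253J, not called, and ZEB2 at 68.2 and 61 CPM in J82, 41.5 and 44.8 in TCCSUP, 0.0606 and 0 in RT112 and 11.4 and 13.2 in 253J (4.605 ± 0.17, adjusted p = 2.4e-08). ACTA2, smooth muscle actin, was at 0.169 and 0.359 CPM in J82, 78.6 and 80.3 in TCCSUP, 1.61 and 0.852 in RT112 and 3.10 and 4.21 in 253J (-4.72 ± 0.35, adjusted p = 2.11e-06), and the membrane protease MMP14 at 34.8 and 20.2 CPM in J82, 663 and 613 in TCCSUP, 474 and 463 in RT112 and 262 and 273 in 253J (-3.97 ± 0.23, adjusted p = 3.89e-07). With TGFBI and COL1A1, these were the 4 called lower than each line. AXL, a receptor kinase, was at 1238 and 811 CPM in J82, 626 and 641 in TCCSUP, 13.9 and 14.2 in RT112 and 339.6 and 307 in 253J (2.85 ± 0.14, adjusted p = 1.5e-07), above all others.

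Growth factor genes showed both directions: of 24 tested, 5 were called higher and 4 lower than the mean, 2 and 3 of these than each line (median -0.22). Among all genes the shares were 8.69% and 5.11% against the mean, and 2.66% and 2.62% against each line. TGFA, a ligand of the EGF receptor, was at 0.542 and 0.653 CPM in J82, 44.5 and 37 in TCCSUP, 44.7 and 49.4 in RT112 and 674 and 624 in 253J (-7.48 ± 0.21, adjusted p = 4.58e-09). AREG, amphiregulin, a further ligand, was at 0.102 and 0 CPM in J82, 24.3 and 19.99 in TCCSUP, 4.21 and 5.36 in RT112 and 219 and 259 in 253J, J82 being at least 2394-fold lower than 253J and 48-fold lower than RT112. EGFR itself, at 268 and 152 CPM in J82, 339 and 347 in TCCSUP, 286 and 297 in RT112 and 296 and 295 in 253J, was below all others in both libraries but not called (-0.56 ± 0.19).

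The FGF receptors differed among the lines. FGFR2 was at 0 CPM in both J82 libraries, 3.64 and 1.81 in TCCSUP, 74.1 and 67.6 in RT112 and 155 and 139.7 in 253J, called lower than each line, with J82 at least 27.3-fold lower than TCCSUP. FGFR3, often mutated in bladder cancer, was at 12 and 10.9 CPM in J82, 1.5 and 2.25 in TCCSUP, 769 and 752 in RT112 and 7.24 and 8.67 in 253J, so RT112 stood far above the rest, and FGFR1 was at 166 and 113 CPM in J82, 204 and 192 in TCCSUP, 1.55 and 2.40 in RT112 and 155 and 155 in 253J, with J82 near TCCSUP and 253J. FGF2, a ligand, was at 126 and 172 CPM in J82, 369 and 386 in TCCSUP, 121 and 97.4 in 253J and 0 in both RT112 libraries, and its call rested on RT112, without which it was -0.45. IGFBP3, which binds insulin-like growth factors, was at 2188 and 2829.9 CPM in J82, 108 and 88.6 in TCCSUP, 1076 and 1078 in RT112 and 90.8 and 75.2 in 253J (3.60 ± 0.13, adjusted p = 2.4e-08), higher than in each line.

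Of 17 cell cycle inhibitors and cyclins, 3 were called higher and 2 lower than the mean, and 0 and 2 than each line (median 0.53). CDKN2A, which encodes p16 and ARF, was at 115 and 157 CPM in J82, 81 and 77.8 in TCCSUP and 0 in both RT112 and 253J libraries. CDKN2B, which encodes p15, was at 107 and 115 CPM in J82, 94.1 and 84 in TCCSUP, 0.438 and 0.828 in 253J and 0 in both RT112 libraries. MTAP, their neighbour, was at 144 and 191 CPM in J82, 80.3 and 88.9 in TCCSUP, 13.5 and 14.9 in 253J and 0 in both RT112 libraries. All 3 were in J82 and TCCSUP and at or near 0 in RT112, and in 253J MTAP alone was above 1 CPM. CDKN2A and CDKN2B are neighbours in the RefSeq order, and 253J had 13 and 23 counts of CDKN2B and 0 of CDKN2A. CDKN1A, which encodes p21, was at 11.7 and 6.99 CPM in J82, 34.7 and 39.6 in TCCSUP, 55.7 and 60.6 in RT112 and 82.2 and 70.3 in 253J (-2.56 ± 0.20, adjusted p = 3.24e-06). CDKN1C, which encodes p57, was at 0.474 and 0.653 CPM in J82, 18.2 and 15 in TCCSUP, 2.91 and 2.15 in RT112 and 2.09 and 1.30 in 253J (-2.87 ± 0.32, adjusted p = 3.63e-05), both lower than in each line.

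Few proliferation genes were called. Of 20 tested, MCM2 was called higher, against the mean and each line, and 0 lower (median 0.32). MCM2, a subunit of the replicative helicase, was at 918 and 1115 CPM in J82, 97.1 and 107 in TCCSUP, 309.8 and 254 in RT112 and 298 and 246 in 253J (2.36 ± 0.13, adjusted p = 2.52e-07). MKI67 was at 255 and 118 CPM in J82, 318 and 371 in TCCSUP, 285 and 348 in RT112 and 207 and 191 in 253J, a log2 fold change of -0.58 ± 0.25 (adjusted p = 0.0723), and TOP2A was at 582 and 814 CPM in J82, 734 and 699 in TCCSUP, 832 and 849 in RT112 and 902 and 779.7 in 253J (-0.19 ± 0.15, adjusted p = 0.311). FOXM1 was at 57.5 and 47.6 CPM in J82, 36.6 and 40.7 in TCCSUP, 30.2 and 38.7 in RT112 and 30.9 and 30.8 in 253J (0.61 ± 0.12, adjusted p = 0.00223). Replicate 1 was higher for 3 of the 20 genes, with a median of -0.32, the opposite side from the interferon lists, and MKI67 was 1 of the 3.

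HOX genes, which mark position along the body axis, were called in both directions, the higher calls being near the share of all genes. Of 37 tested, 4 were called higher and 7 lower than the mean, 1 and 6 than each line (median -0.71). Among all genes 8.69% were higher and 5.11% lower than the mean, and 2.66% and 2.62% than each line. HOXB2 was at 0 CPM in both J82 libraries, 6.80 and 7.62 in TCCSUP, 0.333 and 0.284 in RT112 and 29.5 and 31.3 in 253J, and J82 was at least 305-fold lower than 253J. HOXB3 was at 1.42 and 1.11 CPM in J82, 15 and 14.6 in TCCSUP, 8.85 and 8.96 in RT112 and 10.5 and 13.6 in 253J (-3.20 ± 0.21, adjusted p = 1.08e-06), and with HOXB4 and HOXB8 made 4 genes of the B cluster lower than in each line. HOXD11 was at 4.98 and 5.26 CPM in J82, 0.751 and 0.762 in TCCSUP, 1.64 and 1.64 in RT112 and 0 in both 253J libraries (4.88 ± 0.33, adjusted p = 2.8e-06), the member higher than in each line, and HOXD10 at 3.35 and 2.06 CPM in J82, 1.73 and 0.835 in TCCSUP, 0.637 and 1.17 in RT112 and 0 in both 253J libraries (3.99 ± 0.55, adjusted p = 0.000279).

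Many markers of other cells that a bladder tumour could hold were at the floor in J82, while some were not. Among leukocyte markers, 10 of 14 were at the floor in J82, including CD3D, CD3E and MS4A1, which had 0 counts there, and PTPRC, at 0.0677 and 0.0979 CPM in J82, 8.19 and 9.98 in TCCSUP, 0 and 0.410 in RT112 and 0 in both 253J libraries. CD14, at 3.79 and 2.25 CPM in J82, 11.1 and 9.87 in TCCSUP, 0.337 and 0.144 in 253J and 0 in both RT112 libraries, was called higher than the mean. CD68, at 61 and 22.1 CPM in J82, 18.4 and 19.5 in TCCSUP, 3.73 and 2.93 in RT112 and 7.98 and 6.23 in 253J, was called as well. Of 10 endothelial markers 5 were at the floor, among them PECAM1 and CDH5, both with 0 counts in J82. KDR, the VEGF receptor, was at 7.65 and 8.62 CPM in J82, 0.0376 and 0 in TCCSUP and 0 in both RT112 and 253J libraries, at least 87.7-fold higher than in RT112. Of 15 neuroendocrine and neuronal genes 9 were at the floor, among them CHGA, CHGB and NCAM1, and 0 were called higher and 2, NCAM1 and NEFL, lower (median 0.45, or -0.85 with groups at the floor set at 3 counts). The list was not silent, however. Its summed level was 222 and 261 CPM in J82, 577 and 654 in TCCSUP, 39.9 and 39.9 in RT112 and 208 and 218 in 253J. In J82 nearly all of this sum came from members not named here. SYP, synaptophysin, was at 1.35 and 0.751 CPM in J82, 0.789 and 1.31 in TCCSUP, 1.70 and 1.67 in RT112 and 3.98 and 3.74 in 253J.

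The genes farthest from every other line were chosen for the size of their difference, so that difference is a description. Among genes with a mean of 10 CPM or more in J82, the 10 called higher with the largest gap to the nearest line were ITM2A, RGS7BP, CA8, CPA3, GYPC, TMEFF2, NEURL1, GPAT2P1, SLC12A3 and IRX2. Of these, 9 had 0 counts in all 6 other libraries. SLC12A3, the thiazide-sensitive sodium-chloride cotransporter of the kidney, was at 232 and 262 CPM in J82, 0.121 and 0.0631 in RT112 and 0 in both TCCSUP and 253J libraries, at least 2367-fold higher than in 253J. ITM2A was at 20.3 and 29.7 CPM in J82, 0 in all 6 other libraries, at least 226-fold higher than in TCCSUP. CPA3, a mast cell carboxypeptidase, was at 18.3 and 20.3 CPM in J82, 0 in all 6 other libraries, and GYPC, glycophorin C of the red cell membrane, at 15.5 and 18.3 CPM in J82, 0 in all 6 other libraries. CA8, a carbonic anhydrase-related protein of cerebellar Purkinje cells, was at 18.2 and 21.3 CPM in J82, 0 in all 6 other libraries. GPAT2P1, a pseudogene, was at 12.5 and 10.6 CPM in J82, 0 in all 6 other libraries, and its near copy GPAT2 at 72 and 69.1 CPM in J82, 0 and 0.158 in RT112 and 0 in both TCCSUP and 253J libraries, so their reads cannot be told apart with certainty.

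**Figure D3:**
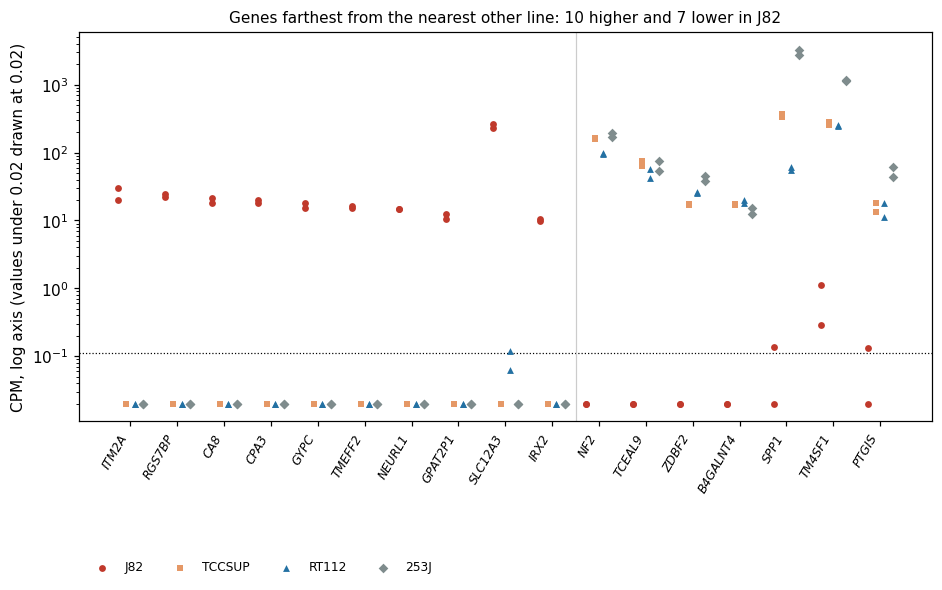
CPM on a log axis in each of the 8 control libraries for the 10 genes called higher in J82 with the largest difference from the nearest other line and for 7 of the 10 called lower, 2 points per line, with values under 0.02 drawn at 0.02. In the 10 higher genes J82 alone is clearly above 0, and in the 7 lower genes J82 alone is near 0.

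Of the 10 called lower, 7 are described here: NF2, TCEAL9, ZDBF2, B4GALNT4, SPP1, TM4SF1 and PTGIS. NF2, which encodes the tumour suppressor merlin, was at 0 CPM in both J82 libraries, 164 and 158 in TCCSUP, 98.6 and 95.5 in RT112 and 197 and 169 in 253J, so J82 was at least 973-fold lower than RT112, the lowest of the others. TCEAL9 was at 0 CPM in both J82 libraries, 63.2 and 75.7 in TCCSUP, 57.3 and 41.9 in RT112 and 74.1 and 53.8 in 253J, and ZDBF2, an imprinted gene, at 0 CPM in both J82 libraries, 17.6 and 16.8 in TCCSUP, 26.4 and 25.4 in RT112 and 37.6 and 44.9 in 253J. SPP1, osteopontin, was at 0.135 and 0 CPM in J82, 366 and 339 in TCCSUP, 55.2 and 60.3 in RT112 and 2765 and 3285 in 253J. TM4SF1, a surface tetraspan protein, was at 1.12 and 0.294 CPM in J82, 285 and 257 in TCCSUP, 257 and 242 in RT112 and 1127 and 1155 in 253J. J82 libraries held at most 1.12 CPM of any of the 7, and each other library at least 11.3 CPM. In all, 9 genes were at the floor in J82 and at 5 CPM or more in each other line, and 31 were at the floor in the 3 others and at 5 CPM or more in J82.

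Of the 487 genes higher than in each line, 401 were protein-coding and 34 lncRNA genes in the RefSeq table, and of the 479 lower genes 432 and 19.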

How the data were processed

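RNA of 8 control libraries of 4 bladder cancer lines had been sequenced by the authors from stranded total RNA depleted of ribosomal RNA. The values used were the raw read counts per gene symbol that the authors deposited in 1 table; the submitters' processing notes name GRCh37, HISAT2 and StringTie, and the counting tool is not given in the sources used here. Counts of the 8 control columns were normalised by TMM and fitted by edgeR 4.0.16 (R 4.3.3, filterByExpr, glmQLFit and glmQLFTest) with a group per line, and J82 was tested against the mean of the 3 line coefficients and against each line, with Benjamini-Hochberg adjustment over 18307 genes. CPM are counts per 1000000 of the TMM-scaled library. Total counts of 27655401 to 32537104 put 3 counts at 0.0909 to 0.113 CPM, and a fold against a group at or under 3 counts in all its libraries was computed against 3 counts. Alternatives used other scaling, filters and thresholds, DESeq2 1.42.0, limma 3.58.1, a replicate block, all 16 libraries, and fits without a line or a library.

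The lines compared and the gene lists were chosen with earlier results of these data known. Genes were named by a rule: the 10 in each direction farthest from the nearest line among those called against the mean and each line, averaging 10 CPM or more in J82 or, if lower, in every other line, and with a RefSeq name; in each list the first 3 members and up to 6 called members with the largest difference; and CD274, IRF1, IRF8, FOXM1 and STAT3. Some genes that the rule chose are not reported here. Every other gene named was chosen after its values were seen. Statistics were tested on simulated data. RefSeq tables on GRCh38.p14 gave promoters, biotypes and neighbours only.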

Additional observations from a re-analysis of the deposited data

How the results depend on the processing

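Against 1590 higher and 936 lower genes, the number called moved past 1.5 times with looser thresholds (log2 fold change beyond 1, adjusted p under 0.05), to 3006 higher and 2249 lower, and with limma's trend fit, chosen after seeing the data, to 1582 lower. The genes higher and lower than each line (487 and 479) became 776 and 799 with looser thresholds, 779 and 815 without 253J, 650 and 820 without RT112 and 1006 and 908 without TCCSUP. The replicate block gave 1254 higher, 797 lower, 321 higher and 382 lower than each line and 34 antiviral effectors; libraries of different lines share only a number, with correlations of their deviations from -0.154 to 0.0493. The antiviral count of 35 ran from 32 to 41 apart from 48 with looser thresholds, and the median of 2.85 was 2.17 without 253J, 3.24 without TCCSUP and 2.52 with limma. Leaving out 1 library gave 1498 to 1641 higher and 802 to 1100 lower genes, 382 to 498 and 403 to 585 than each line, 32 to 39 antiviral effectors and medians from 2.55 to 2.91. Named genes that turned direction were STING1 (-0.73) and CTSS (-0.15) without 253J, and IFNE (-1.19), CCL2 (-0.61), CDH2 (-0.16) and FGF2 (-0.45) without RT112. The line left out was at 4.49 and 4.23 CPM for CDH2 and at or near 0 for the other 5. Of 121 called genes followed under each alternative, 121 kept their call with RLE scaling, 120 with DESeq2, 114 with limma, 113 with the replicate block, 114 without TCCSUP, 113 without 253J and 97 without RT112, the lowest of the alternatives run, where 20 lost the call and 4 turned. Precision is limited by the 2 libraries per line.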

Other observations

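The pregnancy-specific glycoprotein genes, placental members of the carcinoembryonic antigen family, were grouped after their values were seen. All 11 tested were called higher in J82 than the mean and 9 than each line, with a median log2 fold change of 8.20. PSG1 was at 321 and 307 CPM in J82 and at most 2.14 CPM elsewhere. PSG5 was at 339.6 and 350.9 CPM in J82, 6.61 and 6.89 in TCCSUP and at most 1.67 in RT112 and 253J. These genes are near copies of each other, so reads may be shared among them.

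Zinc finger genes with a ZNF symbol leaned the same way: of 504 tested, 95 (18.8%) were called higher and 7 (1.39%) lower, against 8.69% and 5.11% of all genes. Along the RefSeq order of tested protein-coding genes, 3 overlapping windows of 20 neighbours held the most genes called higher, with 17 each, among them that from ZNF528 to ZNF525. The clustered protocadherins, neuronal adhesion proteins, leaned the other way, with 1 of 48 called higher and 21 lower (43.8%), and the window from PCDHA4 to PCDHB10 held 15 of 20 called lower. Both families were chosen after their values were seen, and many members are alike in sequence.

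NF2 had 0 counts in J82, while its RefSeq neighbours NIPSNAP1 and ZMAT5 had means of 27.7 and 6.11 CPM there. IFNGR2, which follows IFNAR2, IL10RB and IFNAR1 in the RefSeq order, was at 25.3 and 26.3 CPM in J82, 25.3 and 23.5 in TCCSUP, 105 and 86.2 in RT112 and 82.7 and 78.9 in 253J.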
